A study of Mus musculus with 2 samples.

Results

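Atp1b1, Atp2b1, Atp2b2, Atp2b4, Slc8a1, Slc8a2 and Slc8a3 encode a sodium pump subunit, 3 plasma membrane calcium pumps and 3 sodium/calcium exchangers. They were taken by gene symbol from the deposited count matrices, and all 7 were found among the 30431 genes listed. The study compared the epilepsy condition with the control condition in single nuclei of dorsal CA1, the output field of the hippocampus. All mice were C57BL/6J males carrying Calb1::Cre and Tdtomato, a reporter cross in which Cre is driven from the gene for the calcium-binding protein calbindin. Epilepsy mice were given hourly kainate (5 mg/kg) at 6 to 7 weeks of age until status epilepticus, a state of continuous seizures, which was ended with diazepam (4 mg/kg), and nuclei were isolated 12 weeks later. Control mice were given vehicle, saline or DMSO, and were otherwise handled alike. Each condition is 1 library. The labels speak of 2 mice per condition and do not say whether a library holds one or both. No difference between conditions therefore has a replicate check, no test was run, and every interval below is a 95% interval that covers counting error only.

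The sodium pump exports sodium and imports potassium at the cost of ATP, which sets the gradient that neurons spend when they fire. Calcium that enters during firing leaves the cell by way of plasma membrane calcium pumps, which bind calcium tightly and use ATP, and sodium/calcium exchangers, which move more calcium at high load and run on the sodium gradient. Both routes are prominent in hippocampal pyramidal neurons, and their isoforms differ between cell types.

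The epilepsy library held 3078 nuclei with 7112131 unique molecular identifiers (UMIs, each marking 1 captured RNA molecule; median 2443 per nucleus), against 3661 nuclei and 11858162 UMIs (median 3447) in the control library. After removal of likely doublets, 2986 epilepsy and 3551 control nuclei remained, and 16 barcodes occurred in both libraries. Markers named the CA1 pyramidal-like class (2341 epilepsy and 2836 control nuclei), with a superficial-like part (843 and 1040) and a deep-like part (687 and 867) split by Calb1 and Ndst4. They also named interneuron-like (143 and 197), oligodendrocyte-like (312 and 227), CA2/CA3 pyramidal-like (52 and 21), oligodendrocyte precursor-like (38 and 24), microglia-like (37 and 36) and astrocyte-like nuclei (31 and 29). The 7 genes gave 27182 epilepsy and 46656 control UMIs in all. Levels are in CPM, the UMIs of a gene per 1000000 UMIs of its class in 1 library. They are not scaled by gene length, so levels are compared between classes and libraries but not between genes.

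In CA1 pyramidal-like nuclei, the genes with the most UMIs, Atp2b1 and Slc8a1, stood at nearly the same level in both libraries. Atp1b1 was 1.36-fold lower in the epilepsy library and Atp2b4, with few UMIs, was 1.38-fold higher. A gene is counted as higher or lower here when its log2 ratio of epilepsy over control is at least 0.32 in size, a ratio of 5 to 4. Of the 7 genes, 1 was higher, 1 was lower and 5 were neither. Their median log2 ratio was -0.05, against -0.01 over all 9217 genes with at least 100 UMIs in these nuclei. Of all those genes, 14.2% were higher and 14.2% lower by that amount, so 1 of 7 in each direction is at the background.

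The regions just before the starts of Atp1b1 and Slc8a3 are shown because these genes carry the clearest difference between libraries and between sublayers described below. Each line gives 250 bases that end at the base before the gene start, from RefSeq (GRCm38.p6), on the gene's own strand. Capitals mark GC boxes (GGGCGG, or CCGCCC on the other strand) and CCAAT boxes (CCAAT, or ATTGG on the other strand).
Atp1b1, chr1:164458356-164458605, minus strand: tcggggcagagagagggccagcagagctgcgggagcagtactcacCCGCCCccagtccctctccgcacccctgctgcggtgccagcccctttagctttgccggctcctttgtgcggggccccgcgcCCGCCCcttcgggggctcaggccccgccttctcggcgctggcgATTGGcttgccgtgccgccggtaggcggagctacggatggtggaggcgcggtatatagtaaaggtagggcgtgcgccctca
Slc8a3, chr12:81333181-81333430, minus strand: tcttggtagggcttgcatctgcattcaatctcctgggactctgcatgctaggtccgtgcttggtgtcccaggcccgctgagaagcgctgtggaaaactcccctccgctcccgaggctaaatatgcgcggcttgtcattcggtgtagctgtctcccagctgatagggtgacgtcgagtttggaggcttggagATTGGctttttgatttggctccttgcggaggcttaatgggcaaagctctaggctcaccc
The Atp1b1 window holds 2 GC boxes and 1 CCAAT box, and the Slc8a3 window holds 1 CCAAT box. RefSeq gives 10 such windows for the 7 genes, all of which matched by symbol. Atp2b1 and Atp2b2 have more than 1 window each, so shares of windows are not shares of genes. A GC box was found in 6 of the 10 and a CCAAT box in 3 of the 10, against 32.7% and 33.8% of all 32851 windows in the table. None of the 10 holds the cyclic AMP response element TGACGTCA, found in 1.55% of all windows, or the AP-1 element TGANTCA, found in 6.75%. Both strands were searched. These matches are letters only, and no factor's binding was measured.

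Atp1b1 encodes the beta-1 subunit of the sodium pump, which brings the catalytic subunit to the plasma membrane. The gene (ENSMUSG00000026576) spans chr1:164437109-164458355 on the minus strand of GRCm38. In CA1 pyramidal-like nuclei it had 737 UMIs in the epilepsy library and 1669 in the control library. Its level was 126 CPM (117 to 136) in epilepsy nuclei and 172 CPM (164 to 180) in control nuclei, and these intervals do not overlap. The log2 ratio was -0.44 (-0.57 to -0.32), and 7.88% of the 9217 genes had a lower one. No nucleus decided it, since the most UMIs in 1 nucleus were 4 in the epilepsy and 5 in the control library. The share of pyramidal nuclei with at least 1 UMI was 26.1% in the epilepsy and 43.1% in the control library, at median depths of 2567 and 3574.5 UMIs. After each nucleus was thinned to 1000 UMIs, the shares were 12.8% (11.5 to 14.3%) and 15.1% (13.8 to 16.5%), and their intervals overlap. No class here is known to lack Atp1b1. In interneuron-like nuclei the thinned shares were 10.4% and 8.65% (21% and 28.9% before thinning), at median depths of 2157 and 3293 UMIs.

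Depth differs between the libraries, so the Atp1b1 ratio was also computed from nuclei of 2000 to 5000 UMIs, a choice made after seeing the data, and was -0.52 (-0.66 to -0.38). From nuclei thinned to 1000 UMIs it was -0.28 (-0.49 to -0.07), in the same direction but short of 0.32 in size. The ratio was below 0 in superficial-like and in deep-like nuclei. The level was 115 CPM in epilepsy and 157 CPM in control superficial-like nuclei (log2 ratio -0.45, -0.67 to -0.24). In deep-like nuclei it was 142 CPM in epilepsy and 185 CPM in control (-0.38, -0.60 to -0.16). Thinned nuclei gave -0.31 (-0.68 to 0.06) and -0.10 (-0.47 to 0.27) in these sublayers, and clusters built without standardisation within library gave -0.22 (-0.48 to 0.02) in deep-like nuclei, so there the difference was within counting error.

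Nme7 lies on the other strand and shares 617 bases with the 3′ end of Atp1b1. Use of strand in counting was not given in the sources used here, so reads from the shared bases cannot be assigned. Nme7 itself had a log2 ratio of -0.06 (-0.31 to 0.18) in pyramidal nuclei.

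Pyramidal nuclei formed 8 clusters with nuclei in both libraries, and 7 of them had at least 10 Atp1b1 UMIs in each library. The ratio was below 0 in all 7, with an interval wholly below 0 in 5, and ranged from -0.78 to -0.01. The ratio was -0.78 (-1.16 to -0.41) in the cluster led by Grm3 and Gm30382, where the level was 94.5 CPM in epilepsy and 163 CPM in control nuclei. It was also -0.78 (-1.18 to -0.40) in the deep-like cluster led by Tox, against -0.18 (-0.44 to 0.08) in the deep-like cluster led by Col11a1. It was -0.01 (-0.54 to 0.50) in the low-UMI cluster led by Ajm1 and Neat1, whose median depth was 1328 UMIs in the epilepsy and 1788 UMIs in the control library.

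**Figure D1:**
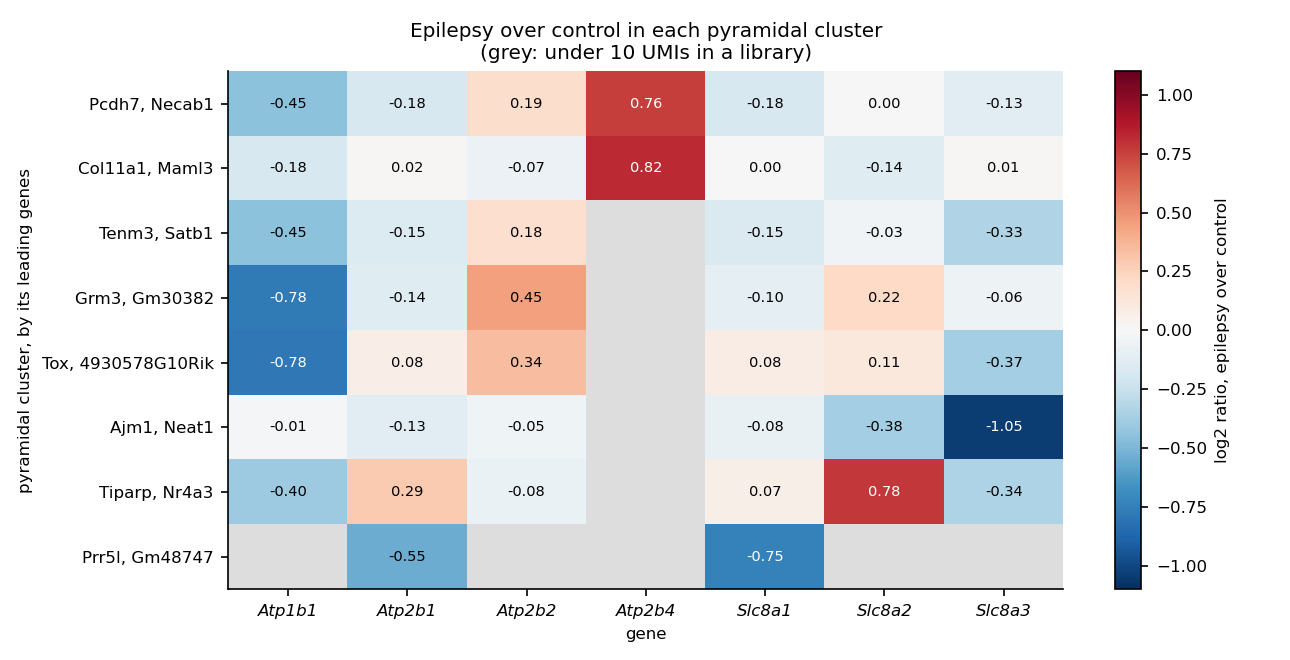
Each cell gives the log2 ratio of epilepsy over control for 1 gene (columns) in 1 pyramidal cluster (rows, named by leading genes), and grey cells had under 10 UMIs in a library. Atp1b1 is below 0 in all 7 clusters shown, Atp2b1 is highest (0.29) in the cluster led by Tiparp and Nr4a3, and Slc8a2 is at 0.78 there.

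Outside pyramidal nuclei, Atp1b1 had few UMIs. Interneuron-like nuclei had 99.9 CPM in the epilepsy and 112 CPM in the control library (-0.17, -0.81 to 0.44). Oligodendrocyte-like nuclei had 16 epilepsy and 48 control UMIs, giving 52.4 and 139 CPM and a log2 ratio of -1.41 (-2.33 to -0.57). It was -0.72 (-1.61 to 0.10) in those with at least 500 detected genes and -0.02 (-1.79 to 1.63) after thinning. Microglia-like nuclei had 2 epilepsy and 21 control UMIs. Astrocyte-like nuclei had 0 epilepsy and 10 control UMIs, which is at least 2.16-fold lower in epilepsy when the 0 is replaced by a floor of 3 counts in that library. Pyramidal markers stand beside these values. Without Pex5l, which oligodendrocytes also express, their summed level in oligodendrocyte-like nuclei was 51.4% of the pyramidal one in the epilepsy and 60.6% in the control library. In microglia-like nuclei it was 66.3% in epilepsy and 85.4% in control, and in astrocyte-like nuclei 14.0% in epilepsy (469 CPM) and 51.0% in control (1636 CPM). In the epilepsy astrocyte-like nuclei 2 of the 10 pyramidal markers were at 0, among them Spink8, and in the control ones none was. The part of this pyramidal RNA in the glial levels of Atp1b1 was not tested, and the same holds for each glial level below.

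**Figure D2:**
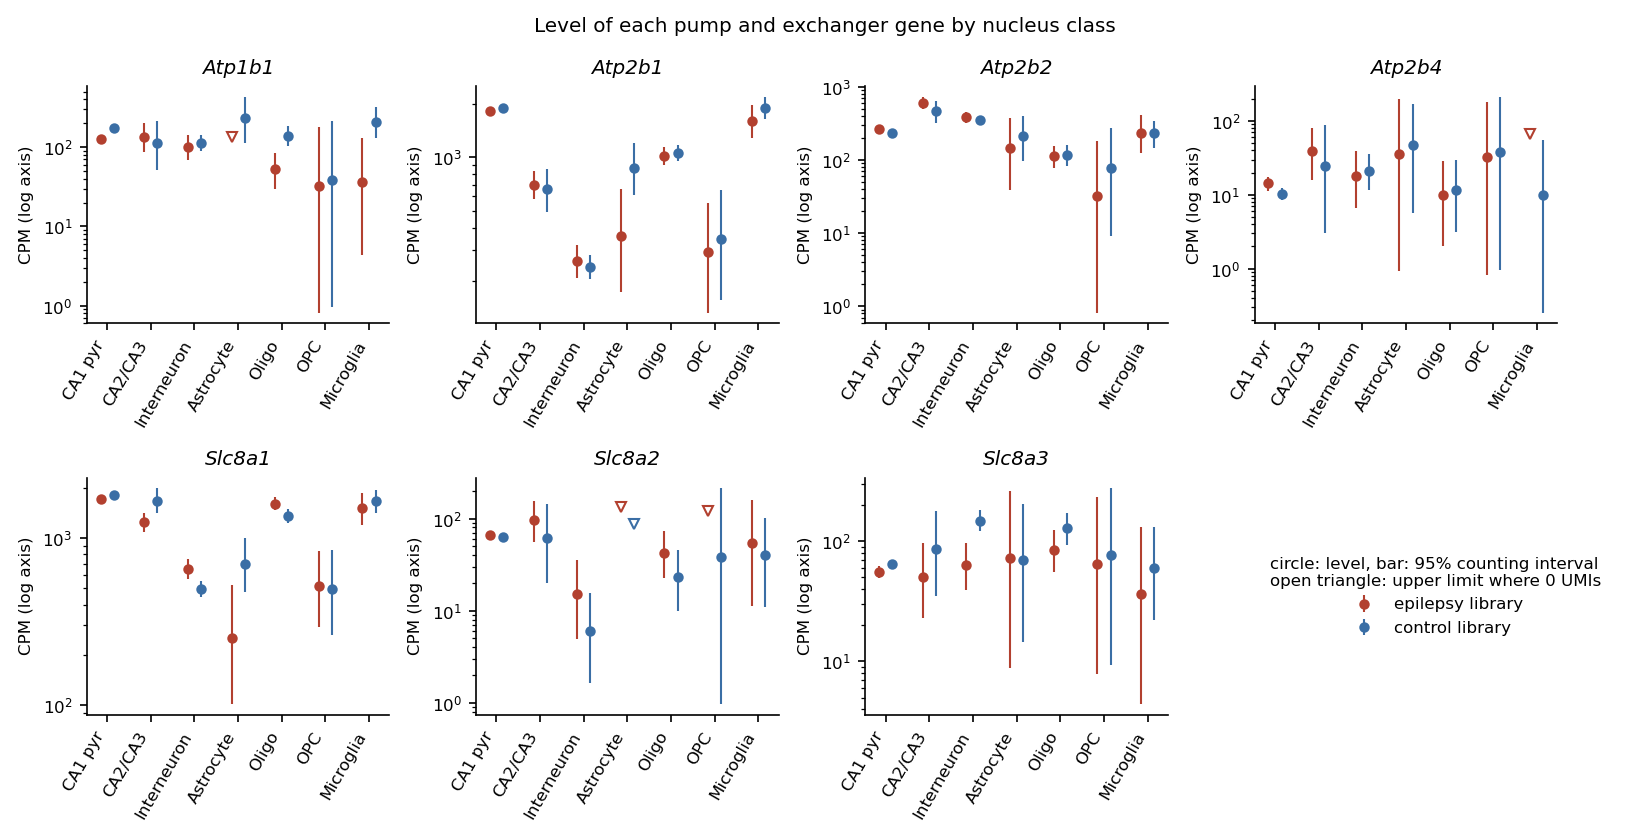
Each panel shows 1 gene, with its level in CPM (log axis) in 7 classes, epilepsy left of control, bars for the 95% counting interval and open triangles for the upper limit where no UMI was seen. Atp2b1 is lowest in interneurons among the classes with over 100 nuclei, and Slc8a1 in interneurons is higher in the epilepsy library (657 CPM) than in the control library (494 CPM).

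Of the plasma membrane calcium pumps, Atp2b1 and Atp2b2 were within 0.32 of equal on the log2 scale in CA1 pyramidal-like nuclei, and Atp2b4 was not. Atp2b1 (ENSMUSG00000019943, chr10:98914406-99026143, plus strand) encodes PMCA1, the housekeeping isoform. CA1 pyramidal-like nuclei had 10628 UMIs in the epilepsy and 18289 in the control library, a level of 1821 CPM (1787 to 1856) in epilepsy and 1882 CPM (1855 to 1909) in control. The log2 ratio was -0.05 (-0.08 to -0.01). Interneuron-like nuclei had 260.3 CPM in epilepsy and 241 CPM in control, 14.3% and 12.8% of the pyramidal level. That is below the 23.7% (epilepsy) and 24.4% (control) at which pyramidal markers stood in the same nuclei. CA2/CA3 pyramidal-like nuclei had 697 CPM in epilepsy and 657 CPM in control, and the intervals of CA1 and CA2/CA3 nuclei do not overlap in either library. Oligodendrocyte-like nuclei had 1015 CPM in epilepsy and 1058 CPM in control (55.7% and 56.2% of the pyramidal level, beside the 51.4% and 60.6% of pyramidal markers), a log2 ratio of -0.06 (-0.28 to 0.16). This ratio turned with the nuclei used: it was 0.39 (0.16 to 0.63) in those with at least 500 detected genes and 0.69 (0.26 to 1.12) after thinning to 1000 UMIs.

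Atp2b1 was lower in epilepsy in superficial-like nuclei and not in deep-like nuclei. Superficial-like nuclei had 1669.9 CPM in epilepsy and 1875 CPM in control, a log2 ratio of -0.17 (-0.23 to -0.11). Deep-like nuclei had 1939 CPM in epilepsy and 1882 CPM in control, a log2 ratio of 0.04 (-0.02 to 0.10). Those 2 intervals do not overlap, and the ratios differ by -0.21 on the log2 scale. The share of all genes with such a gap was not computed, so it cannot be read as particular to Atp2b1. Atp2b1 and Slc8a1 have the most UMIs of the genes studied here and so the narrowest intervals. Atp2b4, with few UMIs, had ratios that differ by -0.28 with intervals that overlap. Both superficial-like clusters went the same way, at -0.18 (Pcdh7, Necab1) and -0.15 (Tenm3, Satb1). The cluster led by the activity-dependent genes Tiparp and Nr4a3 was left out of both sublayers. It had 2370 CPM in epilepsy and 1942 CPM in control, a log2 ratio of 0.29 (0.18 to 0.39). Its markers were on the superficial side, with Calb1 at 1.85-fold and Ndst4 at 0.44-fold the level of the other pyramidal nuclei. The cluster led by Grm3 and Gm30382, also without a sublayer, was at -0.14 (-0.23 to -0.04). Of the 8 pyramidal clusters, 5 were below 0 and 3 above it. The lowest, at -0.55 (-1.27 to 0.11), was the low-UMI cluster led by Prr5l, with 22 epilepsy and 134 control UMIs. Prr5l is also the leading gene of the oligodendrocyte-like cluster. Immediate early genes were lower over all pyramidal nuclei of the epilepsy library, with a summed level of 98.4 CPM against 223 CPM in control, and their part in the ratios here was not tested.

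Atp2b2 (ENSMUSG00000030302, chr6:113743831-114042613, minus strand) encodes PMCA2, a fast pump found mainly in neurons and sensory hair cells. In pyramidal nuclei it had 1556 epilepsy and 2287 control UMIs, 267 CPM (254 to 280) in epilepsy and 235 CPM (226 to 245) in control. The log2 ratio of 0.18 (0.09 to 0.27) is above 0 beyond counting error and short of 0.32, and with trimmed-mean scaling it was 0.09 with an interval that reaches 0. By cluster it was highest in the one led by Grm3 and Gm30382 (0.45, 0.21 to 0.70). Its level was higher in 3 other neuron classes than in CA1 pyramidal nuclei, the reverse of Atp2b1. CA2/CA3 nuclei had 602 CPM in epilepsy and 459 CPM in control, and interneuron-like nuclei 384 CPM in epilepsy and 355 CPM in control. In both libraries the interval of the interneurons lies above that of the CA1 pyramidal nuclei. Over all interneuron-like nuclei the log2 ratio was 0.12 (-0.21 to 0.43), which spans 0. Interneurons high in both Adarb2 and Cnr1 had 484 CPM in epilepsy and 320.1 CPM in control (0.60, 0.03 to 1.16), from 50 and 60 UMIs. Those low in Adarb2 were at -0.11 (-0.59 to 0.36), and those high in Adarb2 and low in Cnr1 at -0.16 (-0.97 to 0.60). Dentate granule-like nuclei, too few to compare in the epilepsy library, had 521 CPM in the control library.

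Atp2b4 (ENSMUSG00000026463, chr1:133699457-133801041, minus strand) encodes PMCA4 and was near the limit of what could be counted. Pyramidal nuclei had 83 UMIs in the epilepsy and 100 in the control library, 14.2 CPM (11.3 to 17.6) in epilepsy and 10.3 CPM (8.37 to 12.5) in control. The log2 ratio was 0.47 (0.03 to 0.90), and 0.38 (-0.06 to 0.81) with trimmed-mean scaling. It was 0.42 (-0.30 to 1.12) in superficial-like and 0.70 (-0.13 to 1.52) in deep-like nuclei, so neither sublayer alone showed a difference beyond counting error. Dentate granule-like nuclei of the control library had 46.5 CPM. The remaining classes had between 0 and 14 UMIs in a library. Predicted genes or a microRNA overlap Atp2b2, Atp2b4, Slc8a1 and Slc8a3 in the annotation, and counts in shared stretches could belong to either.

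Slc8a1 (ENSMUSG00000054640, chr17:81373105-81738377, minus strand) encodes NCX1, the exchanger best known from heart muscle and widely expressed in brain. CA1 pyramidal-like nuclei had 10000 UMIs in the epilepsy and 17506 in the control library, a level of 1714 CPM (1680.2 to 1748) in epilepsy and 1801 CPM (1775 to 1828) in control, and a log2 ratio of -0.07 (-0.11 to -0.04). As for Atp2b1, the sublayers differed. Superficial-like nuclei had 1606 CPM in epilepsy and 1807 CPM in control (-0.17, -0.23 to -0.11), and deep-like nuclei 1909 CPM in epilepsy and 1871 CPM in control (0.03, -0.03 to 0.09). The intervals do not overlap, and the ratios differ by -0.20. The cluster led by Tiparp and Nr4a3 was at 0.07 (-0.05 to 0.18). The one led by Grm3 and Gm30382 was at -0.10 (-0.19 to -0.002). Of the 8 pyramidal clusters, 5 were below 0 and 3 above it. The lowest, at -0.75 (-1.52 to -0.05), was the low-UMI cluster led by Prr5l, with 19 epilepsy and 133 control UMIs.

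Interneurons went the other way from superficial pyramidal nuclei. Interneuron-like nuclei had 217 epilepsy and 326 control Slc8a1 UMIs, 657 CPM (572 to 750.2) in epilepsy and 494 CPM (442 to 551) in control, and a log2 ratio of 0.41 (0.16 to 0.66). After thinning to 1000 UMIs it was 0.39 (-0.04 to 0.82). By group, the ratio was farthest from 0 in nuclei with over 1000 CPM of Adarb2 and under 50 CPM of Cnr1, led by Sv2c, Nos1 and Lamp5. Its nuclei had 1139.6 CPM (911 to 1407) in epilepsy and 565 CPM (455 to 694) in control. Their log2 ratio was 1.01 (0.57 to 1.45), from 86 UMIs in 35 epilepsy nuclei and 91 UMIs in 52 control nuclei. One epilepsy nucleus held 13 of the 86, and without the top nucleus of each library the ratio was 0.93. Nuclei low in Adarb2, which hold the Sst and Pvalb cells, had 699 CPM in epilepsy and 589 CPM in control (0.25, -0.11 to 0.60). Nuclei high in both Adarb2 and Cnr1 had 242 CPM in epilepsy and 277 CPM in control (-0.20, -0.95 to 0.52). Differences between the groups were not tested. The cut-offs of these groups were set after their clusters had been seen.

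Slc8a1 in other classes had smaller counts. Oligodendrocyte-like nuclei had 1607 CPM in epilepsy and 1357 CPM in control (0.24, 0.06 to 0.43; 0.19, -0.07 to 0.45, in nuclei of 2000 to 5000 UMIs), 93.8% and 75.3% of the pyramidal level. Those shares are above the 51.4% and 60.6% of pyramidal markers. Only 52 of 312 epilepsy and 77 of 227 control oligodendrocyte-like nuclei reached 1000 UMIs. CA2/CA3 pyramidal-like nuclei had 1242 CPM in epilepsy and 1674 CPM in control (-0.43, -0.75 to -0.11), from 52 and 21 nuclei, and with trimmed-mean scaling the ratio was -0.20 with an interval that spans 0. Astrocyte-like nuclei had 7 epilepsy and 30 control UMIs (-1.47, -2.90 to -0.26), and Atp2b1 there had 10 and 37 UMIs (-1.26, -2.43 to -0.22). Both were lower in the library whose astrocyte-like nuclei also held less pyramidal marker RNA, as given above. In astrocyte-like nuclei with at least 500 detected genes the Slc8a1 ratio was -0.09 (-1.36 to 1.13) and the Atp2b1 ratio -0.64 (-1.78 to 0.41), and without standardisation within library they were -0.54 (-1.74 to 0.58) and -0.95 (-2.00 to 0.01). Control dentate granule-like nuclei had 176 CPM, the lowest Slc8a1 level of the classes compared in the control library.

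Slc8a2 (ENSMUSG00000030376, chr7:16129826-16161063, plus strand) encodes NCX2, an exchanger found mainly in brain. Pyramidal nuclei had 387 epilepsy and 618 control UMIs, 66.3 CPM (59.9 to 73.3) in epilepsy and 63.6 CPM (58.7 to 68.8) in control, and the log2 ratio of 0.06 (-0.13 to 0.25) spans 0. Its level was low in interneuron-like nuclei, with 5 epilepsy and 4 control UMIs (15.1 and 6.07 CPM). In the cluster led by Tiparp and Nr4a3 it had 88.5 CPM in epilepsy and 51.7 CPM in control (0.78, 0.17 to 1.38), from 46 and 50 UMIs. That was the highest of the 7 pyramidal clusters with at least 10 UMIs in each library. Of these, 4 were below 0 and 3 above it, and only this 1 had an interval that excludes 0. Slc8a2 had 0 UMIs in the astrocyte-like nuclei of both libraries, which allows up to 108 CPM in epilepsy and 70.1 CPM in control with a floor of 3 counts.

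Slc8a3 (ENSMUSG00000079055, chr12:81197915-81333180, minus strand) encodes NCX3, an exchanger of brain and skeletal muscle. Pyramidal nuclei had 324 epilepsy and 630 control UMIs, 55.5 CPM (49.6 to 61.9) in epilepsy and 64.8 CPM (59.9 to 70.1) in control. The log2 ratio was -0.22 (-0.42 to -0.03), short of 0.32 in size. In nuclei of 2000 to 5000 UMIs it was -0.10 with an interval that spans 0.

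In interneuron-like nuclei the difference was wider. They had 21 UMIs and 63.6 CPM (39.3 to 97.2) in epilepsy, against 98 UMIs and 149 CPM (121 to 181) in control. The log2 ratio was -1.23 (-1.98 to -0.53), 2.34-fold lower in epilepsy, and the intervals of the levels do not overlap. The ratio was below 0 in all 3 interneuron groups. Nuclei low in Adarb2 had 79.1 CPM in epilepsy and 203 CPM in control (-1.36, -2.38 to -0.45), from 12 and 63 UMIs. Nuclei high in both Adarb2 and Cnr1 had 8 and 27 UMIs (-0.89, -2.24 to 0.28), and those high in Adarb2 and low in Cnr1 had 1 and 8 UMIs. A UMI was seen in 15 of 143 epilepsy and 69 of 197 control interneuron-like nuclei. After thinning to 1000 UMIs the ratio was -0.70 (-2.02 to 0.50), with shares of nuclei of 5.19% in epilepsy and 9.73% in control (10.5% and 35.0% before thinning). Few UMIs are left at that depth, and the median depth of these nuclei was 2157 UMIs in the epilepsy and 3293 UMIs in the control library.

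In interneuron-like nuclei, 5 of the 7 genes had at least 100 UMIs over both libraries. Of these, Slc8a1 was higher by at least 0.32, Slc8a3 lower by at least 0.32 and the other 3 neither, while 13.7% of 1689 genes were higher and 15% lower by that amount. In superficial-like nuclei 6 were measured, with 0 higher and 1, Atp1b1, lower (14.3% and 13.4% of 6335 genes). In deep-like nuclei 6 were measured, with 0 higher and 1, Atp1b1, lower (12.5% and 17.6% of 5602 genes). None of these shares can be read as particular to these genes.

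**Figure D3:**
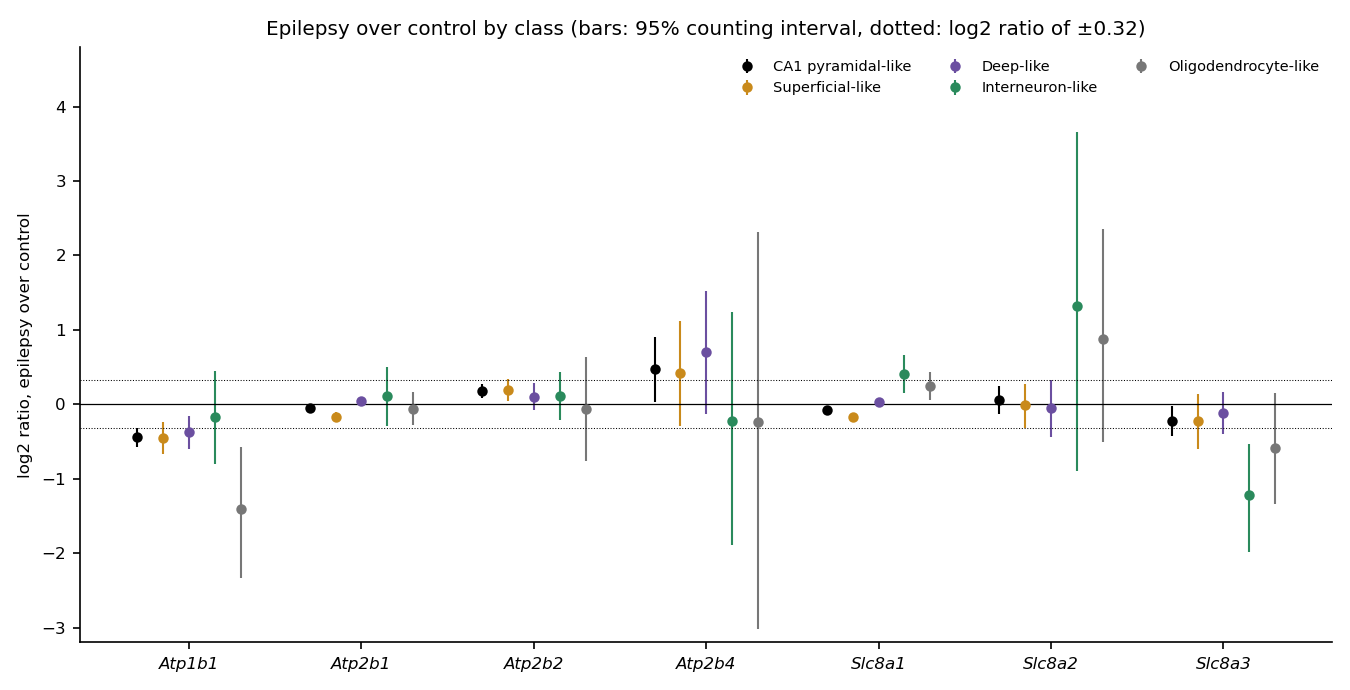
Points give the log2 ratio of epilepsy over control for each gene in 5 classes, with 95% counting intervals and dotted lines at 0.32 in size. Atp1b1 lies at or below -0.38 in both sublayers, Slc8a1 lies at 0.41 in interneurons and -0.17 in superficial-like nuclei, and Slc8a3 lies at -1.23 in interneurons.

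The sublayers were also compared within each library, where depth and handling are shared. Slc8a3 had the largest difference among the 7 genes, and it was seen in both libraries. Superficial-like nuclei had 43.1 CPM and deep-like nuclei 85.5 CPM in the epilepsy library, a log2 ratio of superficial over deep of -0.99 (-1.37 to -0.61). In the control library they had 50.3 and 92.6 CPM (-0.88, -1.15 to -0.61). The level was thus 1.98-fold lower in superficial-like nuclei in epilepsy and 1.84-fold lower in control. Members were left out of the genes used for clustering, so the sublayers were not built from them.

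Slc8a2 had the opposite order, with 70.1 CPM in superficial-like and 51.3 CPM in deep-like nuclei of the epilepsy library (0.45, 0.07 to 0.84), and 70.9 and 53.2 CPM in the control library (0.41, 0.13 to 0.70). With at least 500 detected genes the Slc8a2 ratio was 0.27 (-0.25 to 0.78) in epilepsy and 0.31 (-0.06 to 0.67) in control, and thinning, and in epilepsy also trimmed-mean scaling and a Leiden resolution of 2, likewise gave intervals that span 0. Atp2b2 was also higher in superficial-like nuclei, by 0.36 (0.18 to 0.54) in epilepsy and 0.27 (0.13 to 0.42) in control, where thinning gave 0.23 (-0.05 to 0.52). Atp1b1 was lower in them, by -0.31 (-0.57 to -0.06) in epilepsy and -0.24 (-0.41 to -0.07) in control. With at least 500 detected genes it was -0.24 (-0.57 to 0.08) in epilepsy and -0.14 (-0.35 to 0.07) in control, and thinning, and in epilepsy also nuclei of 2000 to 5000 UMIs, likewise gave intervals that span 0. For these 4 genes the intervals of the libraries overlap. Atp2b4 spanned 0 in both, at 0.03 (-0.76 to 0.84) in epilepsy and 0.31 (-0.41 to 1.06) in control.

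For Atp2b1 and Slc8a1 the intervals of the libraries do not overlap. The share of all genes for which this holds was not computed, so it cannot be read as particular to them. In epilepsy both ratios were below 0 and short of 0.32 in size, Atp2b1 at -0.22 (-0.28 to -0.15) and Slc8a1 at -0.25 (-0.32 to -0.18). In control Atp2b1 stood at -0.01 (-0.06 to 0.04) and Slc8a1 at -0.05 (-0.10 to 0.00). These are the same sums as in the comparison by condition above and no second observation. Of 6 genes measured, 2 were higher by at least 0.32 and 1 lower in superficial-like nuclei of the epilepsy library (24.7% and 14.2% of 5015 genes). In the control library 1 was higher and 1 lower (17.5% and 12% of 6751 genes).

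**Figure D4:**
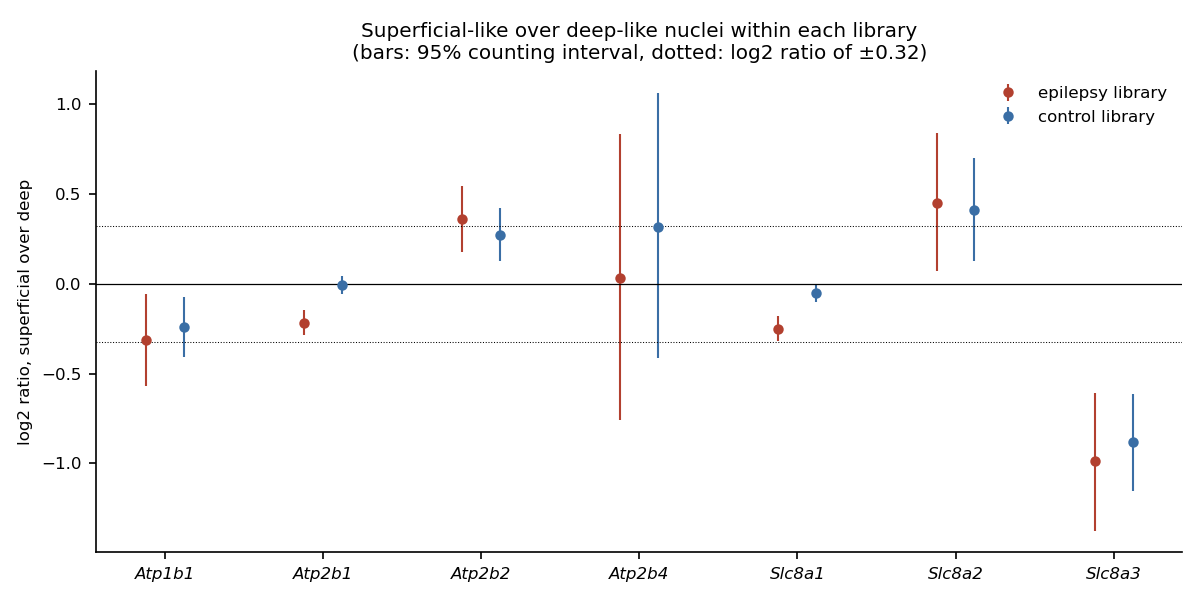
Points give the log2 ratio of superficial-like over deep-like nuclei for each gene, epilepsy library left of control library, with 95% counting intervals and dotted lines at 0.32 in size. Slc8a3 lies near -0.99 and -0.88, and Slc8a2 and Atp2b2 lie above 0 in both libraries. Atp2b1 and Slc8a1, which have the most UMIs and the narrowest intervals, are the genes whose intervals do not overlap between libraries. The share of all genes for which this holds was not computed.

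Other genes of sodium and calcium transport were taken as a list of 34, of which 20 had at least 100 UMIs in CA1 pyramidal-like nuclei. By at least 0.32 on the log2 scale, 2 were higher in epilepsy and 5 were lower, beside the 14.2% of all genes in each direction. The list's median log2 ratio was -0.05. The beta-3 subunit of the sodium pump, Atp1b3, was at 0.02 (-0.24 to 0.27), and the interval of Atp1b1 lies below that of Atp1b3.

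Of the 5 measured pump regulators, 2 were higher in epilepsy, beside the 14.2% of all genes, and at this number the share cannot be read as particular to them. Nkain3 was at -0.24 (-0.31 to -0.16), with 386 CPM in epilepsy and 455 CPM in control, and Nkain1 and Nkain4 had intervals that span 0. Fxyd5, a small membrane protein that binds the sodium pump, had 113 epilepsy and 112 control UMIs, 19.4 and 11.5 CPM (0.75, 0.36 to 1.14). Nkain2, named for its interaction with the pump's beta-1 subunit, had 2301 CPM in epilepsy and 1772 CPM in control (0.38, 0.34 to 0.41). It stood at 2327 CPM in epilepsy and 1764 CPM in control interneuron-like nuclei (0.40, 0.27 to 0.53). Oligodendrocyte-like nuclei had 6835 CPM of Nkain2 in epilepsy and 6320 CPM in control, and oligodendrocyte markers in pyramidal nuclei summed to 129 CPM in epilepsy and 81.5 CPM in control; their part in the Nkain2 ratio was not tested.

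Of 6 genes around the plasma membrane calcium pump, 2 were lower in epilepsy, beside the 14.2% of all genes. Of the 20 measured genes of the list, 0 were lower by 1.5-fold. Nptn, which encodes neuroplastin, an accessory subunit of the pump, had 241 CPM in epilepsy and 307 CPM in control pyramidal nuclei (-0.35, -0.44 to -0.26). It was also lower in interneuron-like nuclei, with 130.1 CPM in epilepsy and 206 CPM in control (-0.66, -1.19 to -0.16), and in oligodendrocyte-like nuclei (-0.81, -1.38 to -0.26). Bsg, which encodes basigin, another accessory subunit, had 80 epilepsy and 194 control UMIs (-0.54, -0.94 to -0.16). Calm2 and Calm3, which encode calmodulin, an activator of these pumps, were at -0.03 and -0.00, each with an interval that spans 0. Atp2b3, the remaining pump isoform, was at 0.15 (0.03 to 0.27).

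Atp2c1, the calcium and manganese pump of the Golgi, had 332 CPM in epilepsy and 458 CPM in control (-0.46, -0.54 to -0.39), while Atp2a2, the pump of the endoplasmic reticulum, was at -0.07 (-0.19 to 0.05). Atp2c1 was also lower in oligodendrocyte-like nuclei, with 246 CPM in epilepsy and 401 CPM in control (-0.71, -1.13 to -0.29). Among the potassium-dependent exchangers, Slc24a4 was at -0.34 (-0.49 to -0.18) and Slc24a5 at -0.36 (-0.63 to -0.10). Slc24a5 is a leading gene of the low-UMI pyramidal cluster led by Prr5l, which held 21 epilepsy and 72 control nuclei. That cluster gave 16613 of the 5835641 epilepsy and 69299 of the 9719406 control UMIs of these nuclei. Its part in the Slc24a5 ratio was not tested. Slc24a2 was at 0.19 (0.16 to 0.22) and Slc24a3 at 0.02 (-0.03 to 0.07).

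**Figure D5:**
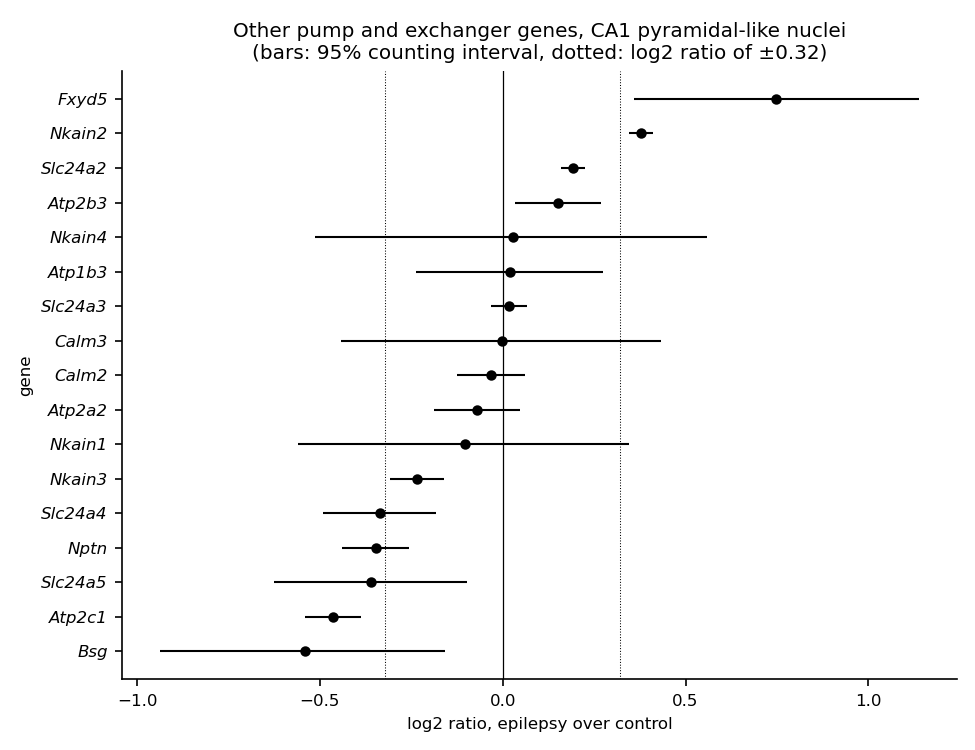
Points give the log2 ratio of epilepsy over control in CA1 pyramidal-like nuclei for the measured genes of the list that are reported here, with 95% counting intervals and dotted lines at 0.32 in size. Fxyd5 and Nkain2 lie above the upper line, and Slc24a4, Nptn, Slc24a5, Atp2c1 and Bsg lie below the lower one.

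For each of the 7 genes, the 3 most alike of 4665 genes were found by Pearson's r of log2(CPM + 10) over 14 points, 7 classes in 2 libraries. The points share libraries, depth and pyramidal RNA, so r only describes likeness. Atp1b1 was closest to Plppr4 (0.92), Actr2 (0.89) and Cdh11 (0.89). Atp2b1 was closest to Cacnb2 (0.96), a calcium channel subunit, Ppp3ca (0.96), the catalytic subunit of calcineurin, and Cttnbp2 (0.95). Slc8a1 was closest to Phactr1 (0.95), Itga8 (0.95) and Onecut2 (0.95). Slc8a2 was closest to Cacna1h (0.92), a T-type calcium channel, Pip5k1b (0.92) and Sipa1l3 (0.91). Atp2b2 was closest to Nrg3os (0.92), Trhde (0.91) and Plec (0.91), and Atp2b4 to Luzp2 (0.88), Trps1 (0.84) and Sec23b (0.83). Outside CA1 pyramidal-like nuclei, Atp2b4 had at most 14 UMIs and Slc8a2 at most 17 UMIs in a point. The r of both therefore rests on few UMIs. Slc8a3 had the weakest neighbours, Syt11 (0.76), Clip3 (0.71) and Mpc1 (0.69). No member was among another member's 3.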

How the data were processed

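The values are raw counts of UMIs per gene and nucleus, 1 sparse matrix per library, whole numbers as deposited by the authors. Per the labels' protocols, each sample loaded 15000 sorted nuclei on 10x Genomics 3' v2 chemistry, read as 75 bp pairs. The submitters' processing notes name Cell Ranger 2.2.0, FastQC and the GRCm38 (mm10) build. Counting of intronic reads was not given in the sources used here. Gene positions come from GENCODE M21, in which 30330 of the 30431 identifiers occur.

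Groups come from the condition label. The members and lists were chosen with earlier results of these data known. Filters of at least 200 genes and under 5% mitochondrial UMIs removed 0 nuclei. Scrublet in scanpy 1.11.5 marked 4 epilepsy and 4 control nuclei, too few to have worked, so the top 3% by doublet score were removed (92 and 110). The 2000 most variable genes, without members and listed pathway genes, were put on a common scale per library and, as 30 components, clustered with leidenalg 0.10.2 at resolution 1. Naming thresholds were set after clusters had been seen. A class needed over 50% of its markers (at least 3) at 20 CPM and 2-fold, and a sublayer needed Calb1 and Ndst4 at 1.5-fold in opposite directions. A cluster got no sublayer if its top 10 genes held at least 2 immediate early genes. The same held if the median depth of its nuclei was under 0.75 of the pyramidal one. By these rules the clusters led by Tiparp and by Ajm1 got none, though their Calb1 and Ndst4 were on the superficial side. Left unnamed were 12 epilepsy and 20 control nuclei, and 811 and 929 pyramidal nuclei had no sublayer.

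UMIs of each class and library were summed and scaled to the total of that class. Ratios carry exact conditional binomial intervals, levels exact Poisson and shares Clopper-Pearson intervals, all at 95%. A gene counts as higher or lower at a log2 ratio of 0.32 in size with at least 100 UMIs over both sums, and classes needed 20 nuclei in each library. The text names the members, list genes past that fold whose interval excludes equal levels, the lowest and highest of the rest and, chosen after values were seen, further list genes by role; for likeness, the 3 best genes with at least 500 UMIs. The interval method was tested on simulated data. Alternatives included trimmed-mean (TMM) scaling by edgeR 4.0.16 (R 4.3.3). A few listed genes go unreported, though counts and medians include them.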

Additional observations from a re-analysis of the deposited data

Results flagged for a closer look

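The Slc8a1 ratio of epilepsy over control pointed in opposite directions in different classes, each with an interval that excludes 0. The log2 ratio was 0.41 in interneuron-like and 0.24 in oligodendrocyte-like nuclei. It was -0.17 in superficial-like, -0.43 in CA2/CA3 pyramidal-like and -1.47 in astrocyte-like nuclei. Under other processing the interval came to span 0 in 4 of 9 alternatives for astrocyte-like and 3 of 10 for CA2/CA3 nuclei. It did so in 1 of 11 each for interneuron-like and oligodendrocyte-like nuclei, and in 0 of 11 for superficial-like nuclei. Equal weight per nucleus is counted among these alternatives but gave no interval, so it could not come to span 0. The difference between classes was not tested, since each condition is 1 library.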

How the results depend on the processing

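No paired analysis was possible because each condition is 1 library, and for the same reason no library could be left out. The Atp2b1 ratio in oligodendrocyte-like nuclei was -0.06 with an interval that spans 0, and 0.39 with at least 500 detected genes and 0.69 after thinning, each with an interval above 0; no other ratio changed sign with an interval that excludes 0. In CA1 pyramidal-like nuclei, thinning to 1000 UMIs left 0 of the 7 genes higher and 0 lower, and equal weight per nucleus gave 2 lower. After thinning, Atp2b4 was still past the fold at 0.40 (-0.33 to 1.13), but it came under the minimum of 100 UMIs. The Atp1b1 ratio was then -0.28, short of the fold. The count of lower genes was 0 under thinning in superficial-like, deep-like and interneuron-like nuclei. It was also 0 in deep-like nuclei with at least 500 detected genes or no standardisation within library. In interneuron-like nuclei it was also 0 at resolution 2 or, chosen after seeing the data, at 2000 to 5000 UMIs. In each of these interneuron settings, thinning included, Slc8a3 was still lower in epilepsy but came under the minimum of 100 UMIs. After thinning its ratio was -0.70, with an interval that spans 0. The count of lower genes was 2 in superficial-like nuclei without standardisation. For superficial over deep in epilepsy, TMM factors gave 1 higher and 3 lower. A minimum of 500 detected genes and thinning each gave 1 higher. Resolution 2, no standardisation and members kept among the clustering genes each gave 2 lower. In control, 500 detected genes and thinning gave 0 higher. Of the list of 34, only genes that reached the minimum of UMIs were counted. Of these, 1 was higher at 1.5-fold, with TMM factors or with a minimum of 500 UMIs, and 5 were higher with a minimum of 20 UMIs. At 1.5-fold, 0 were lower. The cause of these shifts was not tested. TMM factors moved all ratios by -0.09 in CA1 pyramidal-like, 0.23 in CA2/CA3 and -0.21 in astrocyte-like nuclei. The Atp1b1 ratio in pyramidal nuclei lay between -0.53 and -0.28 over 12 alternatives, the Slc8a1 ratio in interneurons between 0.35 and 0.51, and the Slc8a3 ratio there between -1.47 and -0.70, each over 11. Atp2b4, and Slc8a2 outside pyramidal nuclei, are limited by depth.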
